A study of Mus musculus with 13 samples.

Results

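The broad H3K27me3 domains of wild-type mouse embryonic stem cells (mESCs) are stretches of 12 kb or more in which the repressive histone mark H3K27me3 was called. They were selected on the H3K27me3 peaks themselves: peaks of the 2 H3K27me3 lists were joined at any overlap of 1 bp, and a joined region was kept if both lists had a peak in it and it measured 12000 bp or more. Of the 5801 joined regions on chromosomes 1 to 19, X and Y, 634 (10.9%) met this rule. Their length and H3K27me3 coverage are therefore a description of the choice and were not tested.

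The study asked where AEBP2, a subunit of Polycomb repressive complex 2 (PRC2), lies in the genome of mESCs, by ChIP-seq, which sequences the DNA fragments pulled down with a protein or histone mark. The samples used here were all from wild-type cells that the labels place in the 129/1 XY ES cell line, grown in serum with LIF, and comprised 2 replicates for H3K27me3, 2 for endogenous AEBP2 and 1, hence with no replicate, for FS2-AEBP2, the full-length protein with an N-terminal Flag-StrepII tag. The tagged protein was expressed from a pCAG plasmid, which the study's methods place in E14 mESCs, and its ChIP used another protocol, with beads blocked with albumin and yeast tRNA. The labels give the H3K27 antibody with no methylation state, the study names the mark H3K27me3, and nothing in the labels says that replicates came from separate cultures.

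PRC2 methylates lysine 27 of histone H3, and its mark is found over silent developmental genes, many of which encode transcription factors that are switched on as mESCs differentiate. AEBP2 is a zinc finger protein that joins the PRC2 core together with JARID2 and defines a form of the complex. In mESCs the complex collects at CpG islands, stretches of DNA rich in unmethylated CpG dinucleotides that cover many gene starts, and the mark spreads outwards from them.

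The sequences below show the CpG content of domains with and without AEBP2 peaks. Each is the window of 200 bp with the most CpGs in its domain, outside annotated UTRs, read from the plus strand of mm9 with every CpG in capitals. The windows of the Dlx1 and Dlx2, Onecut3 and Nxph4 domains, the 3 domains with the highest AEBP2 coverage, held 26, 34 and 24 CpGs, and that of Cdkn1c, the longest domain, held 32. Each of these windows lay wholly inside a peak of all 3 AEBP2 lists. The Onecut3 and Cdkn1c windows lie in an exon of the gene, the Nxph4 window is intergenic, 547 bp upstream of the start of Nxph4, and the Dlx window is intergenic, 3565 bp downstream of the start of Dlx2.
Dlx1 and Dlx2 domain, chr2:71381147-71381346: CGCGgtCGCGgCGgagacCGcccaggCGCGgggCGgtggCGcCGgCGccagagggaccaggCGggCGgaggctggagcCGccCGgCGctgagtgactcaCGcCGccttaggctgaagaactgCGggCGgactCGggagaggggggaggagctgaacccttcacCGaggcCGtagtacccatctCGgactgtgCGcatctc
Onecut3 domain, chr10:79958372-79958571: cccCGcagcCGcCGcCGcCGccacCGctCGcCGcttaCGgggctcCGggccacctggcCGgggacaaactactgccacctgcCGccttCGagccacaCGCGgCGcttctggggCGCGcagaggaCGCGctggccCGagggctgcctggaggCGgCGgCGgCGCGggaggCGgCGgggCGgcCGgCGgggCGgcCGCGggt
Nxph4 domain, chr10:126972063-126972262: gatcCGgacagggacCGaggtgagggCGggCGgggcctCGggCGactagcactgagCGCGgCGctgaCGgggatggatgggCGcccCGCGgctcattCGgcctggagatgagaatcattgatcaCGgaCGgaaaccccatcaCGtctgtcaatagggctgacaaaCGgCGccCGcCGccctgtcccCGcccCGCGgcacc
Cdkn1c domain, chr7:150645105-150645304: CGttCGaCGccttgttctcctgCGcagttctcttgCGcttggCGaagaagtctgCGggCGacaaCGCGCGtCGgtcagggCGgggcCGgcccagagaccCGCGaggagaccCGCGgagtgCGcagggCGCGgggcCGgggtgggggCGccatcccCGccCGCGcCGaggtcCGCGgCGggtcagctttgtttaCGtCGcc

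The next windows come from the 3 longest domains with no peak in any AEBP2 list and held 6, 9 and 9 CpGs. The window in the Pappa domain is intronic, 114689 bp downstream of the start of Pappa, and the others are intergenic, 156007 bp downstream of the start of Sox9 and 132218 bp downstream of that of Trim29.
Pappa intron domain, chr4:64899798-64899997: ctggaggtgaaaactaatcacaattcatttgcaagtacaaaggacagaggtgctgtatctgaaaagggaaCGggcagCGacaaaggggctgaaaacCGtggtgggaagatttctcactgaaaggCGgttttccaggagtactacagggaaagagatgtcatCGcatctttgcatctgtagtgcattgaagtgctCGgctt
domain nearest Sox9, chr11:112799446-112799645: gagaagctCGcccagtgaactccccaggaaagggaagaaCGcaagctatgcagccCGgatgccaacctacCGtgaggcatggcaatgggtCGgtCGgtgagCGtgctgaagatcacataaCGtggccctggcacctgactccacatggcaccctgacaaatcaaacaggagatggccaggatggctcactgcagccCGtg
domain nearest Trim29, chr9:43250965-43251164: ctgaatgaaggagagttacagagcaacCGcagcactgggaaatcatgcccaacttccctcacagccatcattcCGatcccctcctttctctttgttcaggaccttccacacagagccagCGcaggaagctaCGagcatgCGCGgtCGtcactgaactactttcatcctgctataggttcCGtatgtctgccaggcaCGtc

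Over all members, the window with the most CpGs held a median of 28 CpGs (range 10 to 46) in the 446 domains with a peak in all 3 AEBP2 lists and a median of 10 (range 4 to 32) in the 85 domains with a peak in none. The ranges overlap, and the quartiles, 23 to 32 against 8 to 14, do not.

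The domains ran from 12008 to 162445 bp, with a median of 17066.5 bp and quartiles of 14002.5 and 22881 bp. Together they covered 13015633 bp, which is 33.3% of the base pairs of all joined regions and 0.490% of the chromosomes. H3K27me3 replicate 1 covered most of this span, with 1 peak in 490 of the 634 domains, whereas replicate 2 had 1 peak in 339 and covered less of the outer parts. Domains were unevenly placed, with 0.410 per Mb on chromosome 11, 7 domains in all on X and none on Y, against 0.239 per Mb over all. Just inside the limit were 2 domains without a coding gene start, at 12026 and 12008 bp, covered to 12.2% and 0% by AEBP2 replicate 1. Just outside the limit were the regions of Sall3 (11992 bp), Gm10684 and Scn4b (11973 bp) and Ankrd53 (11962 bp). AEBP2 replicate 1 covered 20.3%, 13.1% and 0% of these regions.

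The number of domains depends on the H3K27me3 list. Single peaks of 12000 bp or more numbered 558 in replicate 1 alone and 328 in replicate 2 alone, and 349 joined regions had 12000 bp or more under both lists.

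**Figure D1:**
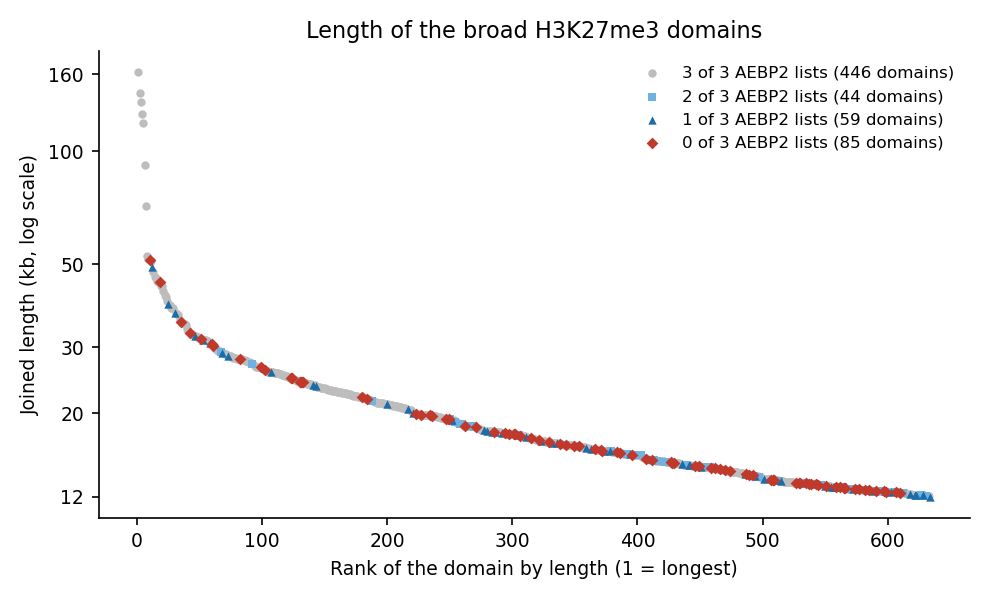
Joined length in kb, on a log axis, against the rank of each of the 634 broad domains by length, with the symbol giving the number of AEBP2 lists with a peak in the domain. The 9 longest domains had a peak in all 3 lists, and the 85 domains with no AEBP2 peak were spread from rank 10, at 51198 bp, down to 12309 bp.

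The longest domain, 162445 bp at chr7:150493565-150656009, runs from within the Kcnq1 gene over Cdkn1c, which encodes a cyclin-dependent kinase inhibitor and belongs to an imprinted cluster. H3K27me3 was called there as 1 peak in replicate 1 and as 19 peaks in replicate 2, which covered 99.8% and 88.4% of it. AEBP2 covered little of this span, 3.90% in replicate 1, 9.87% in replicate 2 and 2.95% for FS2-AEBP2. The 3 peaks of replicate 1 and the 4 of FS2-AEBP2 all lay between positions 150624592 and 150651690, toward the end of the domain that holds Cdkn1c. Replicate 2 also had a peak of 2470 bp within Kcnq1, apart from that stretch. With 2 further domains at Kcnq1, of 49120 bp inside the gene and of 25903 bp over its start and that of Trpm5, the locus held 237468 bp of broad domains within 382415 bp. A CpG-island-like region is here a run of overlapping windows of 500 bp in which G and C make up 55% or more of the bases and CpG occurs at 0.65 or more of the frequency that this base content predicts. The domain of 49120 bp, which holds none, was covered to 0%, 1.36% and 0% by AEBP2 replicate 1, AEBP2 replicate 2 and FS2-AEBP2.

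The next 4 domains by length were the Hox clusters, whose genes specify position along the body axis. They measured 142598 bp (HoxC), 135110 bp (HoxB), 125590 bp (HoxD, with Evx2) and 118921 bp (HoxA). Here AEBP2 replicate 1 covered 58.2%, 61.4%, 61.3% and 56.2%, replicate 2 covered 77.6%, 76.2%, 75.8% and 67.0%, and FS2-AEBP2 covered 71.7%, 70.5%, 65.9% and 88.1%. Each of these values was above 50%, against less than 10% over the longer Cdkn1c domain. The other domains among the 10 longest belonged to Lmx1b (92068 bp), a LIM homeobox gene of limb and midbrain, Nkx1-1 (71365 bp), a homeobox gene, Nr2f2 (52513 bp), which encodes an orphan nuclear receptor, and Wnt3 (51423 bp), a signalling ligand gene, and to an intron of Pappa (51198 bp).
The values spread widely among them. The Nr2f2 domain was covered to 51.8%, 75.8% and 79.4% by the 3 lists in the order above, Lmx1b to 23.3%, 37.0% and 25.5%, Nkx1-1 to 11.5%, 44.2% and 13.7%, Wnt3 to 13.5%, 23.8% and 4.66%, and the Pappa intron domain to 0% by each.

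AEBP2 was called in most, but not all, of the domains. Of the 634, 471 had a peak in AEBP2 replicate 1 (74.3%, 95% Wilson interval 70.7 to 77.5), 539 in replicate 2 (85.0%, 82.0 to 87.6) and 475 for FS2-AEBP2 (74.9%, 71.4 to 78.1). The background over all 5801 joined regions was 28.7%, 50.6% and 27.6%. A longer region can meet a peak more easily, so shares of base pairs are given next. AEBP2 peaks covered 24.7%, 35.3% and 28.0% of the domains' base pairs, against 10.9%, 19.9% and 8.89% in the 1699 regions of 6 to under 12 kb and 4.28%, 11.5% and 3.30% in the 3468 regions under 6000 bp. At least 50% of the domain was covered in 72 (11.4%), 167 (26.3%) and 115 (18.1%) members, where the background was 2.86%, 8.52% and 3.29%. These intervals cover counting error over domains, which are not replicates, and the number of reads behind each list is unknown.

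A median domain was covered to 17.9% by AEBP2 replicate 1 (95% order-statistic interval 15.2 to 20.3), to 28.8% by replicate 2 (25.6 to 31.9) and to 16.2% by FS2-AEBP2 (13.6 to 19.1). Replicate 2 covered more of the domain than replicate 1 in 507 domains and less in 36, and its list is longer, with 6779 peaks against 2877. In the 328 single peaks of H3K27me3 replicate 2 alone the medians were higher, at 47.1% as the mean of the AEBP2 replicates and 43.4% for FS2-AEBP2, and in the 349 regions with 12000 bp under both lists they were 37.8% and 31.96%. The order of the domains was nevertheless alike in the lists, with Spearman's rho of 0.91 between the AEBP2 replicates and of 0.91 between either replicate and FS2-AEBP2 (n = 634 domains of the same H3K27me3 lists, given as a description). A peak of all 3 lists was found in 446 domains (70.3%), of 2 lists in 44, of 1 list in 59, and of none in 85 (13.4%), where none was the case in 46.7% of all joined regions. Among the 59 with a single list, the list was replicate 2 in 50. Within length classes of the domains, a peak of AEBP2 replicate 1 was found in 66.1% of the 221 domains under 15000 bp, 71.7% of the 191 from there to under 20000 bp, 86.9% of the 160 from there to under 30000 bp and 79.0% of the 62 longer ones.

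The 5 domains with the highest coverage in all 3 lists measured 12824 to 36589 bp. The Dlx1 and Dlx2 domain of 22828 bp, over a pair of forebrain homeobox genes, was covered to 89.4% by AEBP2 replicate 1, 92.9% by replicate 2 and 86.2% by FS2-AEBP2. The Onecut3 domain of 21094 bp, over a homeobox gene, was covered to 84.9%, 91.2% and 84.8%, and the Nxph4 domain of 12824 bp, over the gene of a neurexophilin, to 76.8%, 96.9% and 89.5%. Foxf1a (24177 bp), a forkhead gene of lung and gut mesenchyme, had 84.4%, 89.5% and 76.8%, and Pax2 (36589 bp), a gene of kidney and ear development, had 73.1%, 83.1% and 75.01%. In each of these domains CpG-island-like regions made up 20.3% to 31.1% of the base pairs, against 13.6% over all members.

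A start of a protein-coding gene lay in 464 of the 634 domains (73.2%, Wilson interval 69.6 to 76.5), where the background was 46.4% of joined regions. Most held a single gene: 406 had 1 start, 48 had 2 and 10 had 3 or more, 567 starts in all, so that gene starts were sparser per length, at 0.436 per 10 kb, than in the regions of 6 to under 12 kb (0.820) or under 6000 bp (0.983). Starts were counted per annotated gene entry, so Hoxa3 and Psmb9 each count under 2 entries, and predicted genes such as Gm20496 are included. The domains with the most starts were the Hox clusters, with 12 (HoxA), 11 (HoxD, with Evx2) and 10 each (HoxB and HoxC). The next was a domain of 23024 bp on chromosome 17 with 6 starts, among them those of Tap1, Tap2, Psmb8 and Psmb9, which serve the loading of peptides onto MHC class I. It was covered to 2.61%, 15.5% and 2.02% by AEBP2 replicate 1, AEBP2 replicate 2 and FS2-AEBP2, far below the Hox clusters, although it holds 4 CpG-island-like regions.

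Counting gene starts rather than regions searches a window of the same size at each start, whatever the length of its region. The distance from a start to the edge of its region was not held equal. An AEBP2 peak within 1 kb was found at 455 of the 567 starts in broad domains in AEBP2 replicate 1 (80.2%), 508 in replicate 2 (89.6%) and 447 for FS2-AEBP2 (78.8%). In the regions of 6 to under 12 kb, which hold 1134 starts, the shares were 52.2%, 81.1% and 48.1%. The differences were 28.0 percentage points (95% Newcombe interval 23.5 to 32.3), 8.47 points (4.93 to 11.7) and 30.7 points (26.1 to 35.0), so every list had the higher share in the broad domains, by very different amounts in the AEBP2 replicates. Starts of the same region are not independent, and these intervals cover counting error only. Where the length was counted only over base pairs of both H3K27me3 lists, the mean difference of the AEBP2 replicates was 11.3 points in place of 18.3. CpG-island-like regions gave the same order. Of the 1415 in broad domains 82.2%, 94.2% and 82.3% had a peak in AEBP2 replicate 1, AEBP2 replicate 2 and FS2-AEBP2, against 54.3%, 84.8% and 49.3% of the 1616 in regions of 6 to under 12 kb, with differences of 27.9 points (24.7 to 30.95), 9.37 points (7.23 to 11.5) and 32.9 points (29.7 to 36.0). Base composition moved little with length: the GC content was 49.5% in the broad domains and 49.8% in the regions of 6 to under 12 kb, with 2.07 and 2.17 CpGs per 100 bp. The share of base pairs in the inner blocks of both H3K27me3 lists, the narrower stretches that the peak caller marks inside a broad peak, was 40.3% against 26.0%. The part of stronger H3K27me3 in the AEBP2 difference was not tested.

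**Figure D2:**
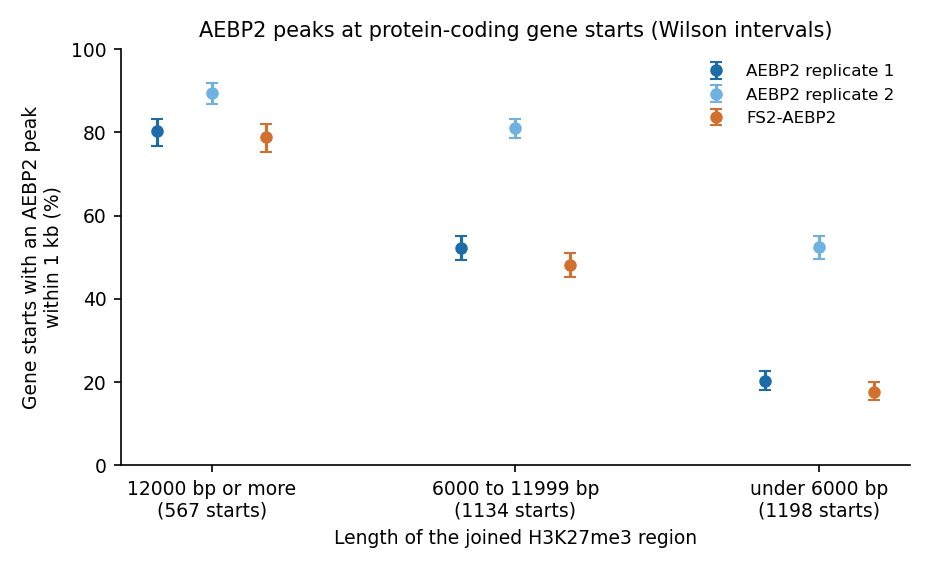
Share of protein-coding gene starts with an AEBP2 peak within 1 kb, in percent, for joined H3K27me3 regions of 3 length groups; points are shares per list and bars 95% Wilson intervals. In each list the share was lower in shorter regions, going from 80.2% to 20.3% in AEBP2 replicate 1, from 89.6% to 52.4% in replicate 2 and from 78.8% to 17.7% for FS2-AEBP2.

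Domains with and without AEBP2 peaks differed more by CpG-island-like regions than by gene starts. Such a region was present in 540 domains (85.2%, background 68.2%), but a longer stretch can hold one more easily. Per length, CpG-island-like regions were not more frequent in the broad domains, at 1.09 per 10 kb. The regions of 6 to under 12 kb had 1.17 and those under 6000 bp 1.80. Of these 540, 86.9% had a peak in AEBP2 replicate 1, 95.9% in replicate 2 and 85.9% for FS2-AEBP2, against 2.13%, 22.3% and 11.7% of the 94 domains without one. The differences were 84.7 points (78.6 to 87.7), 73.6 points (64.0 to 80.95) and 74.2 points (65.6 to 79.9). Between domains with and without a gene start they were 47.7 points (39.4 to 55.2), 37.4 points (29.8 to 45.1) and 38.9 points (30.6 to 46.8). Among the 94 domains that had a CpG-island-like region but no gene start, 71.3%, 88.3% and 75.5% had a peak. These domains can still hold a promoter, because only 1 start per coding gene entry was counted. Of all 170 domains without such a start, 27 held an alternative start of a coding gene and 30 the start of another gene type. Among the 18 domains with a start but no such region, only 2, 6 and 3 had a peak. Where neither was present, in 76 domains, the counts were 0 (upper Wilson limit 4.81%), 15 and 8. Presence of a CpG-island-like region also moved with the H3K27me3 coverage of replicate 2, whose median was 82.9% with it and 71.2% without. Among domains with such a region, a peak was found in 66.0%, 89.7% and 63.9% of the 97 that H3K27me3 replicate 2 covered to under 60%, in 89.5%, 96.1% and 88.3% of the 256 covered to 60% to under 90%, and in 94.1%, 98.9% and 94.1% of the 187 covered to 90% or more. Among domains without one, the shares were 0%, 15.8% and 5.26% of 38, 2.94%, 20.6% and 8.82% of 34, and 4.55%, 36.4% and 27.3% of 22. In each list the share was thus higher at higher coverage by H3K27me3 replicate 2, which the rule used, and the part of that coverage in the difference was not tested. Under a looser definition, windows of 200 bp with 50% or more G and C, added after the data were seen, 23 domains held no CpG-island-like region, and 0, 0 and 1 of them had a peak.

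**Figure D3:**
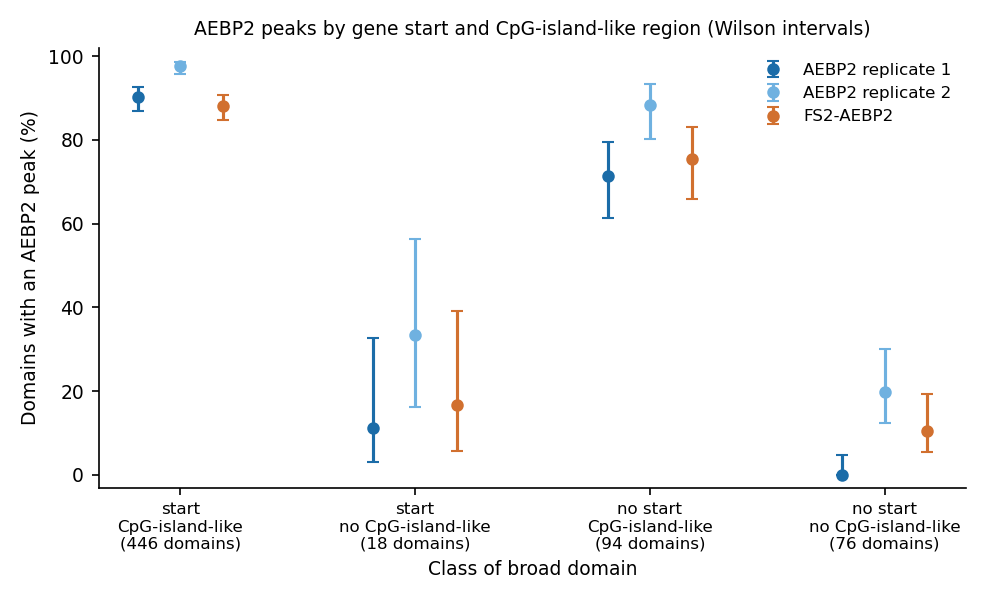
Share of broad domains with an AEBP2 peak, in percent, by whether the domain holds a protein-coding gene start and a CpG-island-like region; points are shares per list and bars 95% Wilson intervals. Domains with a CpG-island-like region lay at 71.3% or more with or without a start, and those without one lay at 33.3% or less. Alternative starts and starts of other gene types were not counted as a start.

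The same held for position inside a domain. In 466 domains with at least 500 bp both under and outside AEBP2 peaks of replicate 1, the covered part had a median of 4.84 CpGs per 100 bp and the uncovered part 1.28, and the covered part was the richer in all 466. For replicate 2 the medians were 4.16 and 1.13 (richer in 524 of 526 domains) and for FS2-AEBP2 4.12 and 1.40 (435 of 449). AEBP2 peaks of replicate 1 covered 80.8% of the base pairs in CpG-island-like regions and 15.9% of the others, those of replicate 2 92.9% and 26.2%, and those of FS2-AEBP2 74.3% and 20.7%. Over the domains, coverage ranked with the percentage of the domain in CpG-island-like regions, with Spearman's rho of 0.79, 0.76 and 0.70, and less with length, with rho of 0.28, 0.29 and 0.32 (n = 634, as a description). Peaks also reached beyond these regions, which held 44.4%, 35.8% and 36.1% of the covered base pairs.

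AEBP2 peaks lay mostly in the middle of the domains. With each domain divided into 10 bins of equal length, AEBP2 replicate 1 covered a mean of 3.01% of the outermost bin on the left, 38.0% of the fifth bin and 3.97% of the outermost bin on the right. For replicate 2 the values were 6.63%, 50.6% and 8.40%, and for FS2-AEBP2 3.78%, 39.7% and 5.03%. The 2 middle bins were covered 10.8, 6.69 and 9.02 times as much as the 2 end bins, whereas the ratio was 1.10 and 1.84 in the H3K27me3 replicates, where the rule itself holds the coverage of the ends up. This shape was not particular to the broad domains. The AEBP2 ratios were 15.4, 12.3 and 15.3 in the regions of 6 to under 12 kb and 3.76, 2.56 and 4.04 in those under 6000 bp. In the broad domains CpG-island-like regions followed the same shape, from 2.42% of the base pairs at the left end to 23.03% in the fifth bin and 3.87% at the right end. There 6 and 20 gene starts lay in the end bins against 83 and 96 in the middle ones. Inside the inner blocks shared by both H3K27me3 lists, AEBP2 covered 49.8%, 67.3% and 55.1% of the base pairs, against 7.81%, 13.7% and 9.70% of the rest of the domains.

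**Figure D4:**
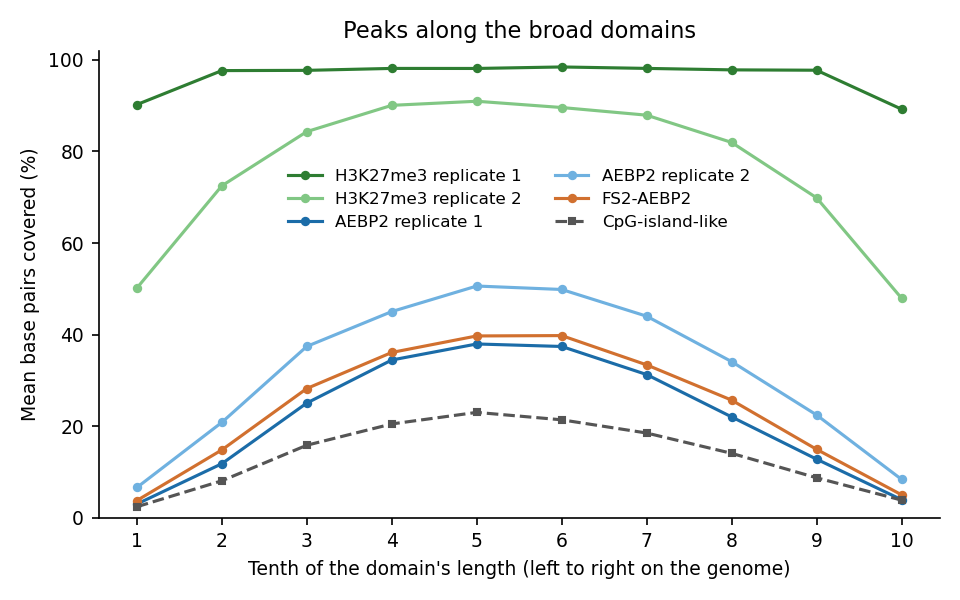
Mean percentage of base pairs covered in each of 10 equal bins along the length of the 634 broad domains, from left to right on the genome, for the 2 H3K27me3 lists, the 3 AEBP2 lists and CpG-island-like regions. H3K27me3 replicate 1 stayed at 89.2% or more throughout, while the AEBP2 lists rose from 3.01% to 6.63% at the left end to 38.0% to 50.6% in the fifth bin.

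The domains around a single gene start were not centred on it. In the 406 such domains, H3K27me3 reached a median of 7366.5 bp upstream of the start and 10133.5 bp downstream, and it reached farther downstream in 264 (65.0%). The whole gene lay inside in 181 (44.6%). AEBP2 followed this asymmetry, covering a mean of 21.8% of the upstream part and 31.5% of the downstream part in replicate 1, 32.9% and 42.8% in replicate 2, and 24.1% and 33.2% for FS2-AEBP2. Coverage was highest in the bin of 500 bp just downstream of the start in the AEBP2 replicates, at 75.5% and 87.3%, and in the bin after it for FS2-AEBP2, at 71.6%. It fell to 28.3%, 35.9% and 32.2% in the bin centred 4750 bp downstream and to 11.8%, 19.4% and 15.3% in that centred 4750 bp upstream.

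Many genes of developmental transcription factors had their start in a broad domain. Of 295 genes on the transcription factor lists used here, 181 (61.4%) had their start in a broad domain, 54 in a shorter H3K27me3 region and 60 in neither, against 560 of all 22225 protein-coding symbols (2.52%). Shorter regions held 2327 of these symbols. A listed transcription factor gene lay in 143 of the 464 domains with a start. These lists were chosen with results of these data known, so the counts describe and do not test. All 12 LIM homeobox genes, among them Lmx1b, Lhx5, Lhx2 and Isl1, and all 6 Iroquois genes, which pattern neural and cardiac tissue, were inside. Of 39 Hox genes 38 were inside. Dlx and Msx genes had 8 of 9 inside, Gata genes 5 of 6 (Gata3, Gata2, Gata5 and Gata6 in the longest domains, and Gata4), Pax genes 7 of 9 with the other 2 in shorter regions, and brain regional homeobox genes such as En2, Uncx, En1 and Barhl2 18 of 26. The list of other paired, Cdx and Evx homeobox genes had 25 of 31, with Evx2, Hmx1 and Barx1 among those in the longest domains, and Pou3f and Pou4f genes 5 of 7.

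Other families were divided. T-box genes, which include T and Eomes of the primitive streak, had 9 of 16 inside, and Nkx genes 8 of 14 with the other 6 in shorter regions. Neural bHLH genes such as Neurod2, Olig2, Neurog2 and Neurog1 had 10 of 21, genes of the sine oculis homeobox and Eya families 4 of 10 (Six2 and Six3 among them), and mesodermal bHLH genes 5 of 17. Forkhead genes had 14 of 43, Sox genes 5 of 18, led by Sox14, Sox9 and Sox21, and Zic and Gli genes 2 of 11. Among signalling genes, Wnt ligands had 11 of 19, with Wnt3, Wnt11, Wnt5a and Wnt1 in the longest domains, whereas FGF ligands had 3 of 22, BMP and GDF genes and their antagonists 5 of 30, Hedgehog pathway genes 2 of 11 (the ligand genes Shh and Ihh), and CDK inhibitors 2 of 7 (Cdkn1c and Cdkn2a). Potassium channel genes had 10 of 94 in broad domains and 46 in shorter regions, and over all symbols, too, shorter regions held more starts than broad domains. Of genes active in mESCs, 0 of 21 pluripotency genes, 0 of 80 cytosolic ribosomal protein genes and 0 of 90 genes of oxidative phosphorylation had their start in a broad domain. The upper Wilson limits of these shares, 15.5%, 4.58% and 4.09%, include the 2.52% of all symbols. For broad domains, each list taken alone thus cannot be told apart from that background. Shorter H3K27me3 regions held 1, 0 and 1 of the genes of these lists, against 2327 of the 22225 symbols.

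**Figure D5:**
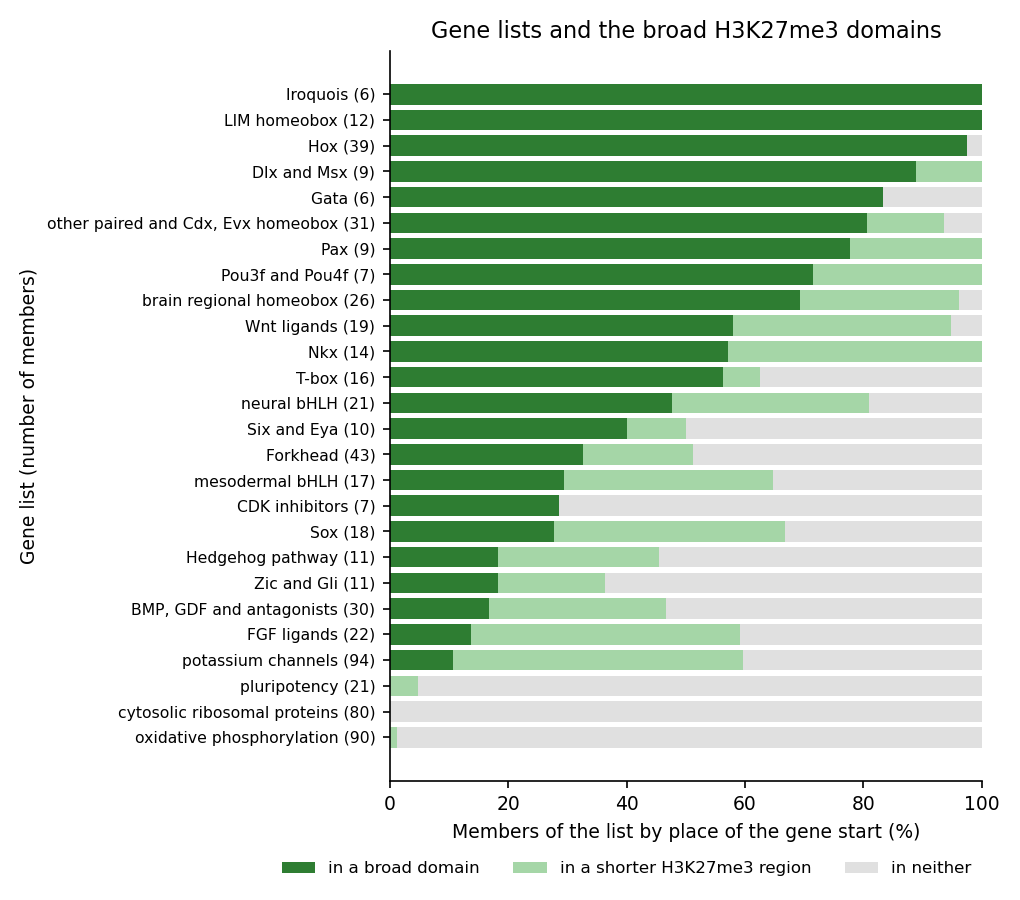
Percentage of the members of each gene list whose start lay in a broad domain, in a shorter joined H3K27me3 region or in neither, with the number of members in parentheses. LIM homeobox and Iroquois genes were at 100% in broad domains, and the 3 lists of genes active in mESCs were at 0%, where the share over all symbols was 2.52% and lay inside their Wilson intervals.

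Domains over a listed transcription factor gene carried more AEBP2 than other domains with a gene, but the lists were chosen with results of these data known. The contrast therefore describes and does not test. It also depends on which genes were listed, since the others include the domain of Nr2f2, an orphan nuclear receptor gene on no list. The domains over a listed gene numbered 143, with a median length of 22600 bp against 15957 bp for the 321 domains with other starts only. A peak was present in 142 (99.3%), 143 (100%) and 143 (100%) of them in AEBP2 replicate 1, AEBP2 replicate 2 and FS2-AEBP2, against 81.6%, 92.8% and 78.8% of the others, with differences of 17.7 points (12.7 to 22.3), 7.17 points (3.65 to 10.5) and 21.2 points (16.3 to 26.0). Their median coverage was 41.8% (order-statistic interval 37.2 to 44.7), 55.6% and 46.8%, against 17.3% (14.5 to 19.8), 26.5% and 14.3%. CpG-island-like regions made up a median of 18.97% of the domains over a listed gene and 14.4% of the others. Their part in this difference was not tested, nor was that of length. The families overlapped in their coverage: median coverage by AEBP2 replicate 1 was 58.2% over the 5 Hox domains, 48.0% over the 12 LIM homeobox domains, 44.9% over the 14 forkhead domains, 24.4% over the 10 neural bHLH domains and 24.1% over the 11 Wnt domains. The potassium channel domains were lower, at 11.8%, 21.1% and 14.1% in the 3 lists over 10 domains.

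The 85 domains without a peak in any AEBP2 list were shorter, poorer in CpG and farther from genes than the other 549. Their median length was 15753 bp against 17403 bp, 16 of them (18.8%) held a CpG-island-like region against 95.4%, and 18 (21.2%) held a gene start against 81.2%. H3K27me3 replicate 1 covered a median of 99.7% of either class, whereas replicate 2 covered a median of 63.9% of these domains and 83.9% of the others. The part of a weaker H3K27me3 call in the absence of AEBP2 peaks was not tested. A domain can lack peaks where the signal falls under the authors' threshold, so no peak does not show that AEBP2 was not there.
The longest lay in an intron of Pappa (51198 bp), 155268 bp from the start of Sox9 (44767 bp), 131789 bp from that of Trim29 (34987 bp), over the start of Slc9a9 (32666 bp), over part of Bcmo1 (31544 bp), part of Fgfr2 (30563 bp), part of Ptprn2 with Mir153 (30251 bp) and part of Ets1 (27879 bp). In the Pappa and Ets1 domains both H3K27me3 replicates covered over 90% of the length, at 95.8% and 96.7% and at 90.7% and 98.1%, so there the mark was called throughout in both lists without an AEBP2 peak. The Ets1 domain holds 1 CpG-island-like region and the other 7 hold none.

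The 170 domains without a coding gene start were a mixed class. Of these, 76 overlapped a protein-coding gene, 27 held an alternative start of a coding gene, 30 held the start of another annotated gene type, and the median distance to the nearest coding gene start was 37845.5 bp. AEBP2 was called in 39.4%, 57.6% and 46.5% of them, against 87.1%, 95.04% and 85.3% of the 464 with a start. Besides domains already named, the longest of them overlapped Prickle1 (39105 bp) and Th (32185 bp) or lay 59490 bp from the start of Polg (32304 bp). The last differed from the others, with AEBP2 over 22.5%, 41.4% and 41.1% of it and 2 CpG-island-like regions, while the Prickle1 and Th domains had no peak in AEBP2 replicate 1 or FS2-AEBP2 and 6.25% and 2.80% in replicate 2.

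Some broad domains had another broad domain nearby. Within 100 kb of each other lay 207 domains (32.6%) in 90 groups. No such share is given for the shorter regions, so the count does not show that broad domains cluster more than others. The largest group had 6 domains over 333700 bp of chromosome 5. It ran from a domain overlapping 4933407H18Rik, next to the Nkx1-1 domain, to that over the start of Fgfr3, a receptor tyrosine kinase gene. In it the domains over Nkx1-1 and Fgfr3 had peaks of all 3 AEBP2 lists, 1 of the other 4 had a peak in replicate 2, and 3 had none. Downstream of Sox9 a similar series ran over 211715 bp: the domain over the gene was covered to 19.3%, 19.7% and 18.95% by the 3 lists, and the other 2 had no AEBP2 peak. At Wnt6, Wnt10a, Fev and Ihh, by contrast, all 4 domains of the group had peaks of every list, with 28.8% to 52.9% covered in replicate 1. These groups were named after their values were seen.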

How the data were processed

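Per the submitters' processing notes, the authors used Bowtie, SAMtools, Picard and MACS2 2.0.10.2 with mm9 and called peaks in each sample. The deposited lists give each broad peak's start, end, inner blocks and a whole-number score of unstated scale, which served only for ranking inside each list. They hold no read counts, so depth is unknown, and 13 H3K27me3 and 2 AEBP2 peaks on unplaced sequences were left out. The list names seem to carry the opposite H3K27me3 replicate number to the sample records, which were followed. The 8 SUZ12, input and AEBP2 KO samples were not analysed here. Gene starts are those of GENCODE protein-coding genes on mm9, 1 per annotated gene entry. Shares have 95% Wilson intervals, differences of shares Newcombe intervals and medians order-statistic intervals, and no p-value was computed, because 2 lists against 1 are too few for an exact test. Named are the 10 longest domains, the 5 with most starts, the 8 longest without AEBP2 and without a start, the 5 with the highest lowest coverage, 3 either side of the limit, and, from 26 gene lists, up to 4 members, save a few genes not reported here. The members and lists were chosen with earlier results of these data known. Joining, coverage and intervals were tested on simulated data. Python 3.11.15, numpy 2.4.6, scipy 1.17.1 and pysam 0.24.0 were used.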

Additional observations from a re-analysis of the deposited data

Results flagged for a closer look

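Outside the chromosomes used here, H3K27me3 replicate 2 had 13 peaks on unplaced sequences, the longest of 6457 bp, where replicate 1 had none, so none could form a broad domain.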

How the results depend on the processing

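Of 76 alternative values for 12 results, 45 stayed within 1.5 times (counts), 1 SD of the AEBP2 replicates or the interval, 31 moved, and the starts' differences kept their sign in every alternative. Leaving out 1 AEBP2 replicate cannot move the mean of both beyond 1 SD, so those values are among the 45 by construction. The SD of 2 values is also wide, at 13.8 points for the AEBP2 difference of 18.3 points at starts. Leaving out H3K27me3 replicate 1 or 2 gave 328 or 558 domains, with an AEBP2 peak in 89.2% or 81.4% and an FS2-AEBP2 peak in 89.3% or 76.9%. Median coverage was then 47.1% or 26.5% for AEBP2 and 43.4% or 18.97% for FS2-AEBP2, and a gene start lay in 77.1% or 74.0%. The differences at starts were 13.0 or 17.1 points for AEBP2 and 24.2 or 29.2 points for FS2-AEBP2. Leaving out AEBP2 replicate 1 or 2 kept the 634 domains, with an AEBP2 peak in 85.0% or 74.3%. Median coverage was then 28.8% or 17.9%, and the difference at starts 8.47 or 28.0 points. With length counted over base pairs of both H3K27me3 lists, 349 domains remained, with AEBP2 in 88.1% and FS2-AEBP2 in 87.4%, medians of 37.8% and 31.96%, a gene start in 78.2% and an FS2-AEBP2 difference of 22.1 points. A minimum of 15000 bp gave 413 domains, an FS2-AEBP2 share of 80.4% and median of 23.4%, and a minimum of 10000 bp 69.3% and 12.8%. Joining H3K27me3 peaks within 1000 bp gave 68.0% and 10.8%, and a gene start in 68.9%. H3K27me3 peaks of at least the median score gave an FS2-AEBP2 share of 78.4%. AEBP2 peaks of at least the median score were in 68.7% of domains and FS2-AEBP2 peaks in 62.6%, and peaks over at least 10% of the domain in 70.6% and 60.4%. Any coding transcript start raised the share with a start to 77.4%. CpG-island-like regions by 200-bp windows, added after the data were seen, left AEBP2 in 82.7% and FS2-AEBP2 in 77.6% of domains with one, and FS2-AEBP2 in 4.35% without. The causes were not tested, beyond fewer or longer members by construction. No paired analysis was possible because the results come from no test between numbered samples. The unknown depth limits what the absence of a peak shows.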

Other observations

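Imprinted genes under broad domains differed in AEBP2 coverage. The domain over Sfmbt2, a Polycomb-related gene, measured 47516 bp and was covered to 13.6% by AEBP2 replicate 1, 12.8% by replicate 2 and 14.4% by FS2-AEBP2. That over Grb10, which encodes a growth factor receptor adaptor, measured 45087 bp and was covered to 26.9%, 32.1% and 4.59%. The domain over Igf2, a growth factor gene, measured 23937 bp and was covered to 38.1%, 56.6% and 33.97%, above the medians of all domains. They were chosen after their values were seen, and no list of imprinted genes was tested.

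Of the 18 domains that held a coding gene start but no AEBP2 peak in any list, the longest after that of Slc9a9 were over Kncn (19722 bp), Pik3r5 (19283 bp) and Gm10146 (18405 bp). Fgf6, Il24 and Calb2 were among the others. None of the 18 held a gene of the transcription factor lists. H3K27me3 replicate 2 covered 14.96% to 100% of them.

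Of the domains without a coding gene start, some had high coverage in all 3 AEBP2 lists. Among the highest were a domain over the lincRNA AI854517 (23890 bp, covered to 51.9%, 77.2% and 80.4% by AEBP2 replicate 1, AEBP2 replicate 2 and FS2-AEBP2) and a domain within Mecom over alternative starts of that gene (18479 bp, 50.2%, 62.1% and 53.1%). These domains, too, were named after their values were seen.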
